A study of Homo sapiens with 8 samples.

Results

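A set of 193 genes had less mRNA with the sulfonamide indisulam than without it in both Panc10.05, a line derived from a human pancreatic carcinoma, and its indisulam-resistant derivative. Each was an autosomal protein-coding gene for which the lower of the 2 untreated libraries reached at least 1.3 times the higher of the 2 indisulam libraries in parental cells and again in resistant cells, with a normalised read count (CPM) of 1 or more in all 4 untreated libraries. CPM is the usual read count of a gene after each library is scaled to the same total of reads assigned to genes, and it is not corrected for gene length. Of the 60675 genes in the tables, 19008 were autosomal and protein-coding, and 10163 of these reached the CPM minimum and were eligible. The fold was met by 1013 eligible genes in parental cells and by 435 in resistant cells, so that the 193 members made up 1.9% of the eligible genes, 19.1% of the first group and 44.4% of the second. The members were thus chosen by their CPM in both indisulam contrasts, and their falls with the drug are given as values without a test.

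The study cultured 4 groups of 2 libraries each. Parental untreated cells had no drug and parental indisulam cells had 2 µM for 18 h. Resistant cells had been raised in rising doses over months and form 1 derived population. The resistant indisulam group was kept on 2 µM throughout, and the resistant untreated group had a drug holiday of a week, so the contrast within the resistant line compares lasting exposure with withdrawal rather than a short treatment. No agent other than indisulam separates the groups in the labels. The titles and cell line field name Panc10.05 and were followed, although the growth and treatment notes name A549. The libraries of each group are described by the study as technical replicates, so p-values measure only the spread between libraries.

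Indisulam is known as a molecular glue: it brings the splicing factor RBM39 to the ubiquitin ligase adaptor DCAF15, and RBM39 is then degraded. RBM39 takes part in the recognition of splice sites, and its loss is known to cause exon skipping and intron retention in many transcripts. In bulk libraries, fewer cells that express a gene and less of its RNA per cell cannot be told apart.

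Each library had 65266253 to 108002436 reads assigned to genes. The pancreatic ductal markers (EPCAM, KRT7, KRT8, KRT18, KRT19, CDH1, MUC1, SOX9, CLDN4 and ELF3) were all at 1 CPM or more in every library, 10 of 10, with a summed level of 6686 to 13106 CPM. Markers of leukocytes summed to at most 0.38 CPM, those of endothelium to at most 0.439 CPM, those of lung epithelium to at most 0.00926 CPM, those of acinar cells to at most 0.046 CPM and those of islet cells to 0. The fibroblast list reached 1.34 to 4.13 CPM, with 1 of its 5 genes at 1 CPM or more throughout. RBM39 (ENSG00000131051, chr20:35701347-35742312, minus strand) itself was at 336 and 340 CPM in the parental libraries without the drug, 696 and 704 with it, 296 and 309 in the resistant libraries off the drug and 592 and 609 on it, so its mRNA stood higher, not lower, with the drug in both lines.

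The members covered a wide range of sizes of change, although most were near the limit of the rule. With the smaller of a gene's 2 folds as its measure, 7 members were at 2 or more, 65 lay from 1.5 to 2 and 121 lay from 1.3 to 1.5, with a median of 1.43 and a maximum of 2.66. Just inside the limit, FAM219A stood at 1.3002 in parental and 1.3211 in resistant cells, COASY at 1.3017 and 1.3351, and METAP1D at 1.3047 and 1.4347. Just outside, SYNE3 stood at 1.8866 in parental cells and a hair under the limit of 1.3 in resistant cells, CENPU at 1.3124 and 1.2990, and TMEM144 at 1.2975 and 1.3987. All 193 members passed the expression filter and all were called lower with the drug in the quasi-likelihood fit of edgeR in both lines, which the rule makes nearly certain. Beside that count, 26.6% of the 16661 genes tested were called lower in parental and 25.8% in resistant cells, while 31.6% and 24.9% were called higher. The median fitted log2 fold change of the members was -0.66 in parental and -0.68 in resistant cells, against 0.01 in both lines over all tested genes. The fitted fall was larger in parental cells for 79 members and larger in resistant cells for 114. With libraries scaled by their totals alone, the medians over all tested genes were -0.051 in parental and 0.058 in resistant cells. The split is given for the main fit only, so it is not read as a lean to either line.

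The largest smaller fold belonged to ARHGEF4 (ENSG00000136002, chr2:130836914-131047263, plus strand), a guanine nucleotide exchange factor. Its level was 10.3 and 8.91 CPM in the parental libraries without the drug, 3.24 and 2.78 with it, 9.02 and 8.66 in the resistant libraries off the drug and 3.25 and 2.9 on it. The lines lay within 2 CPM of each other off and on the drug, and the fold was 2.75 in parental and 2.66 in resistant cells. ABCC3 (ENSG00000108846, chr17:50634777-50692253, plus strand), an efflux pump for glucuronide and other conjugates, was at 37.5 and 37.0 CPM in the parental libraries without the drug, 14.5 and 13.7 with it, 82.5 and 86.5 in the resistant libraries off the drug and 28.9 and 26.2 on it. The resistant line carried more ABCC3 in each condition, and its indisulam libraries were still below the untreated parental ones. SFXN2, a sideroflexin of the inner mitochondrial membrane, was at 30.6 and 30.5 CPM without and 10.7 and 9.53 CPM with indisulam in the parental libraries, and 29.2 and 27.7 against 13.5 and 13.3 CPM in the resistant ones. DHFR2 was at 3.94 and 3.93 CPM without and 1.48 and 1.64 CPM with indisulam in the parental libraries, and 4.31 and 4.57 against 1.89 and 1.61 CPM in the resistant ones. FAM86B1 was at 8.07 and 7.36 CPM without and 2.51 and 2.32 CPM with indisulam in the parental libraries, and 7.35 and 6.99 against 2.86 and 2.71 CPM in the resistant ones. Both belong to families of close copies, among which reads may be shared. In each of these genes the untreated and indisulam libraries of a line were well apart, and the 2 libraries of a group were close.

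ACTR3C, an actin-related gene, was at 13.6 and 14.1 CPM without and 5.62 and 6.05 CPM with indisulam in the parental libraries, and 24.6 and 23.1 against 9.18 and 9.07 CPM in the resistant ones. It overlaps LRRC61, another member, on the opposite strand, and LRRC61 held 72.1% of the reads of the pair, besides the pseudogene ZBED10P on the same side with 80.6%. LRRC61 was at 42.7 and 42.4 CPM without and 26.1 and 26.6 CPM with indisulam in the parental libraries, and 38.5 and 36.6 against 25.3 and 23.7 CPM in the resistant ones. The strand setting of the counting was not given in the sources used here, so reads of such pairs cannot be told apart. Opposite-strand partners of other members with large folds were TRAPPC2L, with 91.6% of the reads of its pair with GALNS, CNTRL, with 94.2% beside C5, ZNF664, with 97.5% beside CCDC92, and TRMT5, with 83.3% beside SLC38A6. KLHL23, with 95.0% of the reads of its pair with PHOSPHO2, lies on the same strand, where the strand setting does not bear on the split. With the drug, the fitted log2 fold changes of these 5 partners ran from 0.02 to 0.36 in parental and from -0.13 to 0.49 in resistant cells. In all, 43 members had an overlapping partner with at least 20% of the reads of the pair.

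**Figure D1:**
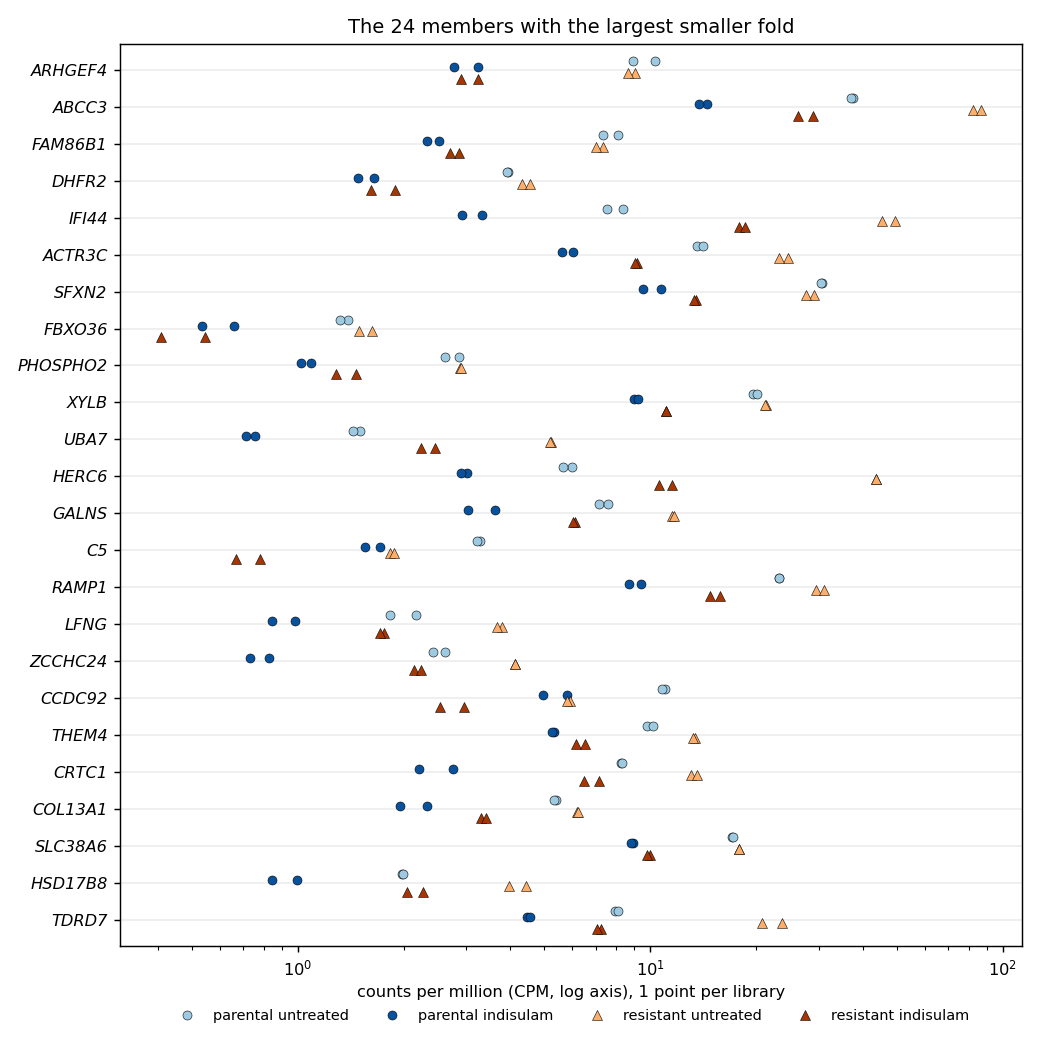
CPM on a log axis in each of the 8 libraries (1 point each, circles parental, triangles resistant, pale untreated, dark indisulam) for the 24 members with the largest smaller fold, in that order. In every row both dark symbols of a line lie left of its pale ones, with a smaller fold of 2.66 in ARHGEF4 at the top.

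Among the other members in this group of 24 were metabolic enzymes and signalling proteins. XYLB, which phosphorylates xylulose, was at 19.5 and 20.1 CPM without and 8.98 and 9.22 CPM with indisulam in the parental libraries, and 21.3 and 21.2 against 11.1 and 11.1 CPM in the resistant ones. GALNS, a lysosomal sulfatase, was at 7.17 and 7.56 CPM without and 3.62 and 3.04 CPM with indisulam in the parental libraries, and 11.5 and 11.7 against 6.11 and 6.04 CPM in the resistant ones. RAMP1, which shapes the ligand choice of calcitonin-family receptors, was at 23.1 and 23.2 CPM without and 9.41 and 8.69 CPM with indisulam in the parental libraries, and 29.6 and 31.1 against 15.8 and 14.8 CPM in the resistant ones. The parental indisulam libraries were the lowest of the 8 in all of these. CRTC1, a coactivator of CREB, was at 8.27 and 8.31 CPM without and 2.75 and 2.21 CPM with indisulam in the parental libraries, and 13 and 13.6 against 7.16 and 6.5 CPM in the resistant ones. LFNG, a glycosyltransferase that modifies Notch, was at 2.16 and 1.83 CPM without and 0.842 and 0.982 CPM with indisulam in the parental libraries, and 3.79 and 3.68 against 1.76 and 1.71 CPM in the resistant ones. COL13A1, a transmembrane collagen, was at 5.4 and 5.32 CPM without and 2.33 and 1.95 CPM with indisulam in the parental libraries, and 6.19 and 6.24 against 3.31 and 3.42 CPM in the resistant ones. In these 6 genes the resistant line was above the parental line in both conditions. THEM4 and HSD17B8, both mitochondrial enzymes, had folds of 1.83 in parental and 2.03 in resistant cells and 1.99 in parental and 1.76 in resistant cells. FBXO36, an F-box gene near the CPM minimum, had folds of 1.99 in parental and 2.72 in resistant cells and rested on levels of at most 1.62 CPM.

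The upstream sequences of 5 of the first 7 of these genes are shown (ABCC3 and FAM86B1 are not), since these members had the largest smaller folds. Each window runs from 250 bases before to 50 bases after the annotated start, 300 bases in GRCh38.p14, and is written in the direction of the gene. Capitals mark matches, on either strand, to patterns of known promoter elements. For the cell cycle these were E2F (TTCCCGCC, TTTGGCGC or TTTCGCGC) and the cell cycle homology region (TTTGAA). Common elements of housekeeping promoters were the CCAAT box, NRF1 (GCATGCGC), YY1 (AAGATGGC) and ETS (CCGGAAG). The zinc finger family SP/KLF was searched as GGGCGG. Elements of signal-dependent factors were CRE (TGACGTCA), AP-1 (TGA and TCA around any 1 base) and the E-box, searched as CACGTG. The TATA box was searched as TATAAA. In IFI44 the interferon-stimulated response element (TTTCNNTTT) is marked too. The windows are chr2:130836664-130836963, plus strand for ARHGEF4, chr3:94062867-94063166, minus strand for DHFR2, chr1:78649539-78649838, plus strand for IFI44, chr7:150323496-150323795, minus strand for ACTR3C and chr10:102714386-102714685, plus strand for SFXN2.
ARHGEF4: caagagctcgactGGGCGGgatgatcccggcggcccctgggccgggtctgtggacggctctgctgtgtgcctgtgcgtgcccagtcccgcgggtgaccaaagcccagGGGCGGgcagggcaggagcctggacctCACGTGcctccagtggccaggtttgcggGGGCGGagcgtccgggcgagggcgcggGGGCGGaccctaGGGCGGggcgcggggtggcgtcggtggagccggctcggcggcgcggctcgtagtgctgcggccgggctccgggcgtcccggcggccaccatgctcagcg
DHFR2: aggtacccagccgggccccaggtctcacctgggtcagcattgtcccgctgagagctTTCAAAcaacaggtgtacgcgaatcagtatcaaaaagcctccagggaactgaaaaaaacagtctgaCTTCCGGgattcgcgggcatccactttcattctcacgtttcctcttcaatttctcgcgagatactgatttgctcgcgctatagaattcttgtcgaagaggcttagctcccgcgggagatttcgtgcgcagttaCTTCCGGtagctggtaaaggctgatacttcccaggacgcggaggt
IFI44: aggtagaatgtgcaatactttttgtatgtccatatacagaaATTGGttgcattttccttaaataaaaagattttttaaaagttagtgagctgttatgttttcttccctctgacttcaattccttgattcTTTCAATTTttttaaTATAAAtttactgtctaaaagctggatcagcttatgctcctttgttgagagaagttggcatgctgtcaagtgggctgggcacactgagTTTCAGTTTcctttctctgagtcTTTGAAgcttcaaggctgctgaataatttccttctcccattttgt
ACTR3C: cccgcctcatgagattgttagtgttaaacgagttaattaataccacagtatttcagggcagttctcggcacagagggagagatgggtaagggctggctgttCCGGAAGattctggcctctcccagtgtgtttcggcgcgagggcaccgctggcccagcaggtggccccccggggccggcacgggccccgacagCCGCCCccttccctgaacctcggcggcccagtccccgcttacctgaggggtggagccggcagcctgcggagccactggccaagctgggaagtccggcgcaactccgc
SFXN2: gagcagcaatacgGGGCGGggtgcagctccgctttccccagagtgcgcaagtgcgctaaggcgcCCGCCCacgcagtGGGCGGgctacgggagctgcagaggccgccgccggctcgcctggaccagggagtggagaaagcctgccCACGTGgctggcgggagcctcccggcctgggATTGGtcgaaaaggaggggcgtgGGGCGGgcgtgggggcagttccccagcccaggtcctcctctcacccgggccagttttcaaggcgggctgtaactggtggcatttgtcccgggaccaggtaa
A few of these patterns can share bases, such as E2F with SP/KLF. ARHGEF4 and SFXN2 hold SP/KLF and E-box letters, DHFR2 and ACTR3C hold ETS letters, and IFI44 alone among the 5 holds TATA letters. No motif was shared by all of them.

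Over all members, 153 had an entry in RefSeq. SP/KLF letters occurred in 77.1% of their windows, against 72.6% of the 8266 windows of other eligible genes and 45% of all 35116 windows. For CCAAT the shares were 34%, 37.5% and 34.6%, and for ETS 17.6%, 21.9% and 10.3%. E2F letters were in 8.5% of member windows, 7.59% of other eligible and 4.24% of all windows. NRF1 letters gave 7.84%, 6.12% and 3.05%, and E-box letters 11.8%, 10.5% and 7.26%. The shares for the cell cycle homology region (7.84%, 9.19% and 15.2%), YY1 (3.92%, 6.13% and 2.89%), CRE (3.27%, 3.71% and 1.85%), AP-1 (2.61%, 4.27% and 7.71%) and TATA (2.61%, 4.91% and 11.5%) were below those of other eligible genes. SP/KLF and CCAAT letters are short and frequent, and a match is a description of letters only. The median GC content of the windows was 68.7% in members and 65.7% in other eligible genes.

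Next, the members were set against lists of genes. The 25 lists and 14 symbol families placed 53 members, and 140 stood on none. The interferon-induced list held 13 members among its 50 eligible genes (26%), and none of the other 38 lists and families had a share above 6.11%. The TMEM-named genes held 8 of 131 eligible genes, the F-box genes 3 of 50, the autophagy and lysosome list 4 of 69, the DNA replication and nucleotide supply list 3 of 66, the cyclin and CDK list 2 of 50, the solute carriers 6 of 174 and the centrosome and cilium list 3 of 91. No member came from the lists for the core spliceosome (80 eligible genes), SR proteins and hnRNPs (65), mitosis and spindle (88), ribosome biogenesis (101), respiratory chain subunits (73) or chromatin modifiers (119), nor from the families of cytosolic ribosomal proteins (74) and proteasome subunits (47). Of the 1935 tested genes on the lists, 296 were called lower with the drug in both lines by edgeR, a criterion without a minimum fold. The matching share over all tested genes is not given here. This count and those of single lists below are therefore not read as high or low.

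**Figure D2:**
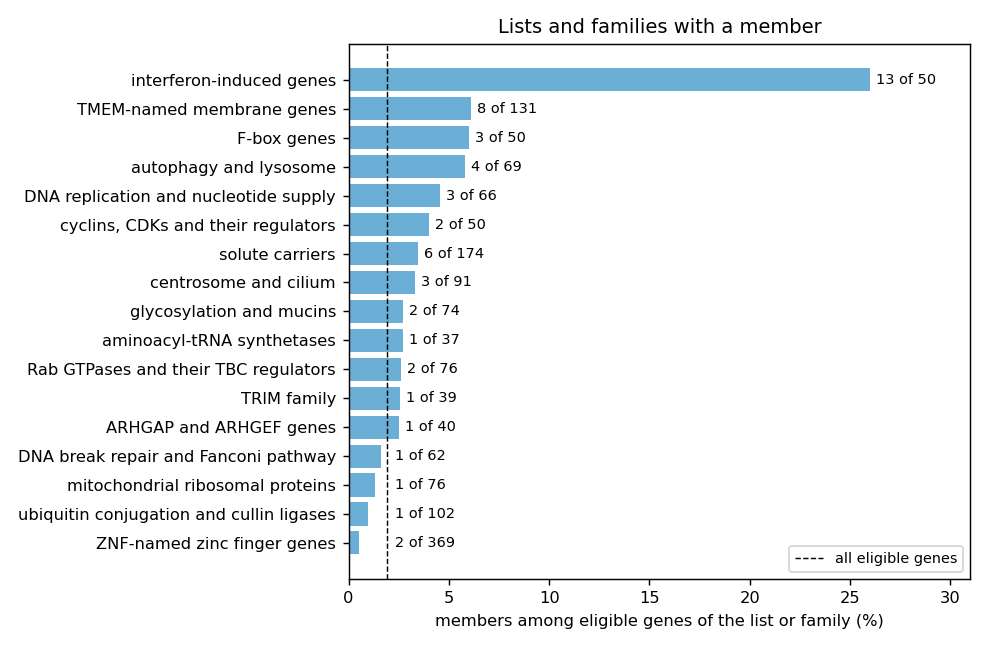
Members as a percentage of the eligible genes of each list or family among the 25 lists and 14 families with at least 1 member, with the counts beside the bars and the share over all eligible genes (1.9%) as a dashed line. The interferon-induced list stands at 26%, and the next of those drawn, the TMEM-named genes, at 6.11%. The peroxisome list, added later, is not drawn.

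Interferon-induced genes are known to be switched on when a type I interferon receptor activates transcription factors such as STAT2, and they encode sensors, ubiquitin-like modifiers and antiviral effectors. The 13 members on the list had folds of 1.39 to 2.26 in parental cells, and 10 of them had the larger fold in resistant cells. Of the 72 tested genes of the whole list, 34 were called lower and 10 higher with the drug in parental cells, 69 were called lower in resistant cells, and 33 were called lower in both. The median log2 fold change of the list was -0.19 in parental and -1.22 in resistant cells, beside 0.01 in both over all tested genes. Of the 72, 22 were not eligible for the rule.

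STAT2 was at 39.4 and 39.7 CPM without and 23.8 and 22.3 CPM with indisulam in the parental libraries, and 89.4 and 97.2 against 50.5 and 47.1 CPM in the resistant ones, with folds of 1.66 in parental and 1.77 in resistant cells. Its treated resistant libraries were still above the untreated parental ones.

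Effectors and modifiers followed with the same order of the groups. IFIT1 (ENSG00000185745, chr10:89392546-89406487, plus strand), which binds viral RNA lacking host cap methylation, was at 7.96 and 7.34 CPM in the parental libraries without the drug, 4.45 and 4.03 with it, 81.1 and 78.8 in the resistant libraries off the drug and 20.2 and 20.6 on it. IFIT2, its neighbour 83274 bases away, was at 26.5 and 24.5 CPM without and 17.7 and 16.9 CPM with indisulam in the parental libraries, and 95.6 and 92.2 against 69.4 and 70.4 CPM in the resistant ones, with LIPA on the opposite strand holding 57.6% of the reads of that pair. IFI44 (ENSG00000137965, chr1:78649796-78664078, plus strand) was at 8.38 and 7.54 CPM without and 3.34 and 2.92 CPM with indisulam in the parental libraries, and 45.3 and 49.4 against 17.9 and 18.5 CPM in the resistant ones. In each of these genes the resistant libraries on the drug were above the parental libraries without it. The ISG15 modifier pathway was present through UBA7, its activating enzyme, at 1.5 and 1.43 CPM without and 0.713 and 0.758 CPM with indisulam in the parental libraries, and 5.24 and 5.18 against 2.45 and 2.23 CPM in the resistant ones. HERC5, the ligase of ISG15, was at 2.44 and 2.61 CPM without and 1.32 and 0.994 CPM with indisulam in the parental libraries, and 17.0 and 15.7 against 9.59 and 9.69 CPM in the resistant ones. HERC6, 14021 bases from HERC5 on chromosome 4, was at 5.98 and 5.67 CPM without and 3.01 and 2.9 CPM with indisulam in the parental libraries, and 43.7 and 43.6 against 10.6 and 11.5 CPM in the resistant ones. HERC6 differed between the lines in its fold (1.89 in parental and 3.78 in resistant cells), whereas HERC5 had folds of 1.85 in parental and 1.62 in resistant cells.

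DDX60 and DDX60L are related helicase-like genes 37851 bases apart on chromosome 4. DDX60 was at 36.9 and 34.0 CPM without and 21.5 and 19.1 CPM with indisulam in the parental libraries, and 164 and 169 against 97.6 and 103 CPM in the resistant ones. DDX60L was at 15.0 and 14.9 CPM without and 9.76 and 9.33 CPM with indisulam in the parental libraries, and 123 and 128 against 61.9 and 63.0 CPM in the resistant ones. The treated resistant libraries were above the untreated parental ones in both. OASL, a member of the oligoadenylate synthetase family without synthetase activity, was at 9.74 and 9.4 CPM without and 5.9 and 4.88 CPM with indisulam in the parental libraries, and 81.9 and 76.1 against 48.3 and 45.9 CPM in the resistant ones. SAMD9, a restriction factor of poxviruses, was at 12.5 and 11.7 CPM without and 7.88 and 6.95 CPM with indisulam in the parental libraries, and 73.4 and 75 against 25.2 and 26.6 CPM in the resistant ones. PARP12, an ADP-ribosyltransferase, was at 50.9 and 49.9 CPM without and 30.1 and 29.2 CPM with indisulam in the parental libraries, and 168 and 165 against 97.2 and 97.1 CPM in the resistant ones. These genes had the same order of the 4 groups as STAT2. Off the list, and picked after its values were seen, SHFL, which is known to inhibit frameshifting on viral RNA, was at 7.12 and 7.0 CPM without and 4.61 and 4.55 CPM with indisulam in the parental libraries, and 13.4 and 15.5 against 6.54 and 5.71 CPM in the resistant ones. TDRD7, a Tudor-domain gene among the 24 with the largest smaller fold, was at 7.95 and 8.08 CPM without and 4.46 and 4.55 CPM with indisulam in the parental libraries, and 23.7 and 20.8 against 7.24 and 7.07 CPM in the resistant ones. In all of these the untreated resistant libraries were the highest of the 8.

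**Figure D3:**
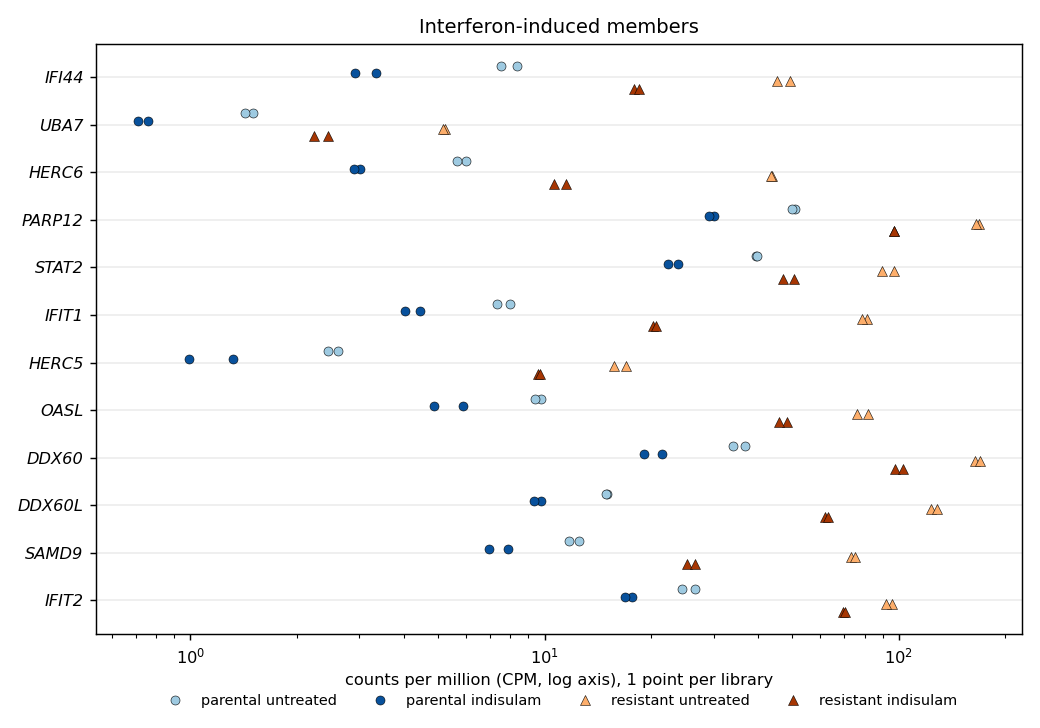
CPM on a log axis in each of the 8 libraries (1 point each, colours and symbols by group) for 12 of the 13 members on the interferon-induced list. In every row the 2 untreated resistant libraries are the highest and the 2 parental indisulam libraries the lowest, from 81.1 and 78.8 down to 4.45 and 4.03 CPM in IFIT1.

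The interferon-stimulated response element (TTTCNNTTT, either strand), a letter pattern added after the members were seen, occurred in 7 of the 9 windows available for the interferon-induced members, and in 8.5% of all member windows, 6.48% of windows of other eligible genes and 10.5% of all windows. The windows of PARP12 (chr7:140062902-140063201, minus strand) and IFIT1 (chr10:89392373-89392672, plus strand), with that of IFI44 printed earlier, show where these letters stand, in capitals.
PARP12: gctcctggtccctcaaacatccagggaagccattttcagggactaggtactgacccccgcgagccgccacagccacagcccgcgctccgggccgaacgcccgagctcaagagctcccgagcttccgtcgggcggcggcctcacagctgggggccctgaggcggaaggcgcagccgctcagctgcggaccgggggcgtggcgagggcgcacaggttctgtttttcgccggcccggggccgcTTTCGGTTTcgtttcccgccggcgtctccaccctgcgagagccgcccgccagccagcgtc
IFIT1: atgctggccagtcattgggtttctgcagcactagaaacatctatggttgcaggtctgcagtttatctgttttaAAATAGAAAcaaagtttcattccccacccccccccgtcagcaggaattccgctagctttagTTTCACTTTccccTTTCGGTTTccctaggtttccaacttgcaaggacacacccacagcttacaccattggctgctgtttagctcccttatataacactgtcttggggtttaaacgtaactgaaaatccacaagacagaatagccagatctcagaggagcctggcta
IFIT1 holds 3 matches and PARP12 a single one. The windows of HERC6 and STAT2 hold none, which says only that these letters are not in those 300 bases.

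Members of DNA replication, the G1-S step and DNA repair are described together next. Members were 4.55% of the eligible genes on the replication list and 4.0% on the cyclin and CDK list. Both shares were below those of the TMEM-named genes, the F-box genes and the autophagy and lysosome list. CDC45, a subunit of the replicative helicase, was at 76.0 and 76.0 CPM without and 43.6 and 45.2 CPM with indisulam in the parental libraries, and 102 and 100 against 60.3 and 58.6 CPM in the resistant ones. POLE2, a subunit of DNA polymerase epsilon, was at 29.4 and 30.4 CPM without and 18.5 and 17.7 CPM with indisulam in the parental libraries, and 50.9 and 49.4 against 32.6 and 33.1 CPM in the resistant ones. TYMS (ENSG00000176890, chr18:657653-673578, plus strand), which makes thymidylate, was at 191 and 193 CPM without and 104 and 105 CPM with indisulam in the parental libraries, and 197 and 197 against 139 and 137 CPM in the resistant ones. In these 3 genes the untreated resistant libraries were the highest of the 8. ENOSF1, on the strand opposite to TYMS, held 33.8% of the reads of their pair. The transcription factor E2F1 was at 90.1 and 94.4 CPM without and 67.7 and 65.4 CPM with indisulam in the parental libraries, and 114 and 118 against 80.9 and 77.8 CPM in the resistant ones. The pocket protein RBL1, which restrains E2F factors, was at 74.4 and 75.1 CPM without and 52.3 and 51.3 CPM with indisulam in the parental libraries, and 84.3 and 86.0 against 61.1 and 62.7 CPM in the resistant ones. FAN1, a nuclease of crosslink repair, was at 54.8 and 56.9 CPM without and 33.6 and 34.0 CPM with indisulam in the parental libraries, and 49.0 and 51.6 against 35.1 and 33.9 CPM in the resistant ones. MYB, UNG and CAD, which stand on no list and were picked after their values were seen, had folds of 1.36 in parental and 1.87 in resistant cells, 1.31 in parental and 1.69 in resistant cells and 1.37 in parental and 1.31 in resistant cells. All of the genes named in this group had the untreated libraries above the treated ones in each line by 1.31-fold or more.

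Over the whole replication and nucleotide list, 29 of 67 tested genes were called lower and 18 higher with the drug in parental cells. In resistant cells 55 were called lower and 3 higher, and 27 were called lower in both lines. The medians were -0.06 and -0.30. In the cyclin and CDK list, 12 of 51 were called lower and 19 higher in parental cells, and 20 lower and 13 higher in resistant cells. By contrast the mitosis and spindle list, without a member, had 17 of 94 genes called lower and 58 higher in parental cells, and 21 lower and 60 higher in resistant cells.

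The windows of POLE2 (chr14:49688165-49688464, minus strand), RBL1 (chr20:37095948-37096247, minus strand) and E2F1 (chr20:33686336-33686635, minus strand) are shown because they are the 3 of the 5 members of the replication and cyclin lists that hold E2F letters. Capitals mark E2F and CCAAT matches.
POLE2: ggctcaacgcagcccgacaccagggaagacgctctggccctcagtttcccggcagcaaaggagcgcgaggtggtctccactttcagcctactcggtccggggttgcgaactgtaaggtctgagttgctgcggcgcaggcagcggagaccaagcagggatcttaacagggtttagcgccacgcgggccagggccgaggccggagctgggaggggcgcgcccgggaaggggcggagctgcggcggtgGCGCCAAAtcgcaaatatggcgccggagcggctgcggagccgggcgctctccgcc
RBL1: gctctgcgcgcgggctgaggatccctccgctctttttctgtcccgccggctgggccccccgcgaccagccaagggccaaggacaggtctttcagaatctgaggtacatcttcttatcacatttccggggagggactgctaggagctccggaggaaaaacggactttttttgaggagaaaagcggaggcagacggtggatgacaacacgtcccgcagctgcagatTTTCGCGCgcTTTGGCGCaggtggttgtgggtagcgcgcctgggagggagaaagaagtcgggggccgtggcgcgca
E2F1: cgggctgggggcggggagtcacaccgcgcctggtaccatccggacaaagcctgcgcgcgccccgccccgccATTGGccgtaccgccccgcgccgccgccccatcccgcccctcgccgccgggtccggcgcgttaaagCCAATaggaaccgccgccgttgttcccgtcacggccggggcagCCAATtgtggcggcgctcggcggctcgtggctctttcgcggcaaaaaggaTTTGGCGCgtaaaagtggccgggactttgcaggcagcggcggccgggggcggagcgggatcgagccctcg
RBL1 holds 2 different E2F patterns close to each other, and E2F1 holds 3 CCAAT matches besides its E2F match. The windows of CDC45 and TYMS hold no E2F letters.

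Lysosomal enzymes were found among the members through NAGLU, GUSB and HEXA, which degrade glycosaminoglycans and gangliosides. NAGLU was at 14.1 and 13.4 CPM without and 8.0 and 6.85 CPM with indisulam in the parental libraries, and 16.4 and 17.4 against 9.18 and 9.07 CPM in the resistant ones. It was higher in the resistant line in each condition. GUSB was at 93.2 and 91.8 CPM without and 62.0 and 62.4 CPM with indisulam in the parental libraries, and 74.6 and 74.4 against 52.7 and 52.6 CPM in the resistant ones. HEXA had folds of 1.32 in parental and 1.31 in resistant cells. In the autophagy and lysosome list as a whole, 19 of 77 tested genes were called lower and 44 higher in parental cells, and 22 lower and 25 higher in resistant cells.

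Cilium genes were the intraflagellar transport subunits IFT172 and IFT140 and the transition zone protein TMEM67. IFT172 was at 6.63 and 7.08 CPM without and 4.12 and 4.15 CPM with indisulam in the parental libraries, and 10.7 and 10.5 against 7.39 and 6.8 CPM in the resistant ones. IFT140 was at 5.9 and 5.16 CPM without and 3.15 and 3.24 CPM with indisulam in the parental libraries, and 7.77 and 8.0 against 5.58 and 5.23 CPM in the resistant ones. TMEM67 was at 9.93 and 9.89 CPM without and 6.12 and 6.01 CPM with indisulam in the parental libraries, and 13.8 and 13.3 against 9.71 and 9.2 CPM in the resistant ones. In the centrosome and cilium list 29 of 95 tested genes were called lower and 38 higher in parental cells, and 28 lower and 27 higher in resistant cells. Partner genes on the opposite strand held 90.1% of the reads of the IFT140 pair (TELO2) and 71.8% of the IFT172 pair (KRTCAP3).

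The rest of the lists held few members. QARS1, the glutaminyl-tRNA synthetase, was at 139 and 143 CPM without and 99.3 and 99.2 CPM with indisulam in the parental libraries, and 141 and 139 against 104 and 100 CPM in the resistant ones. NAE1, a subunit of the enzyme that activates the ubiquitin-like NEDD8, was at 95.2 and 98.7 CPM without and 71.8 and 71.3 CPM with indisulam in the parental libraries, and 108 and 105 against 78.5 and 79.1 CPM in the resistant ones. NEDD8 is needed for cullin ligases to be active. MRPL39, of the mitochondrial ribosome, had folds of 1.44 in parental and 1.44 in resistant cells. PIGN, of glycosylphosphatidylinositol anchor synthesis, had folds of 1.34 in parental and 1.44 in resistant cells, and GALNT10, which starts mucin-type O-glycans, 1.31 in parental and 2.0 in resistant cells. Among solute carriers, SLC38A6 had folds of 1.91 in parental and 1.78 in resistant cells, SLC22A4, a carnitine and ergothioneine transporter, 1.75 in parental and 1.49 in resistant cells, and SLC6A6, the taurine transporter, 1.49 in parental and 1.64 in resistant cells. The TMEM-named genes were led by TMEM62, TMEM143 and TMEM223, with parental folds of 1.74, 2.13 and 2.35 and resistant folds of 1.55, 1.51 and 1.5. A single member came from the TRIM family (TRIM66, 1.6 in parental and 1.34 in resistant cells), and pairs from the Rab regulators (RAB40B, 2.05 in parental and 1.51 in resistant cells, and TBC1D22A, 1.43 in parental and 1.56 in resistant cells) and the zinc finger genes (ZNF251 and ZNF771). FBXW10B and FBXO4 were the other F-box genes.

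To describe members by what they do, 10 groups by known role were drawn up after the values were seen, and they hold 93 members. The largest, 19 genes of mitochondrial proteins, had parental folds of 1.3 to 2.86 and resistant folds of 1.31 to 2.05. It includes GOT2 (aspartate aminotransferase), HADH (fatty acid oxidation), SIRT5 (a lysine desuccinylase), the peptidases MIPEP, PITRM1 and METAP1D, and the motor MYO19. A group of 14 cilium and centriole genes, with AHI1, IQCB1, KATNIP and CFAP44, spanned 1.31 to 2.04 in parental and 1.32 to 1.87 in resistant cells. Nucleotide, folate and sugar enzymes numbered 13, among them IMPDH1, MTRR, KHK, GALK1, PGLS and H6PD, with folds of 1.31 to 2.39 and 1.31 to 2.29. Transcription factors and cofactors numbered 10, with TCFL5 and the clock gene PER3. Smaller groups were 8 receptors and surface signalling genes (EPHB2, LRP8, AGRN and ADCY3 among them), 7 membrane transporters, 7 genes of RNA processing and translation (the cap-binding NCBP1, the tRNA enzymes ADAT2 and TARBP1, and the elongation factor kinase EEF2K), 6 lysosomal genes and 5 of membrane lipids (LPCAT3, PEMT, PLPP5, OSBPL5 and SEC14L2).

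Peroxisomes, which oxidise very long and branched fatty acids, were represented by 4 members, among them the assembly factor PEX3, the lyase HACL1 and the hydrolase NUDT7. PEX3 was at 10.6 and 10.8 CPM without and 4.34 and 4.7 CPM with indisulam in the parental libraries, and 9.52 and 10.3 against 5.41 and 5.95 CPM in the resistant ones. HACL1 had folds of 1.38 in parental and 1.39 in resistant cells, and NUDT7 1.72 in parental and 1.32 in resistant cells. A peroxisome list made after seeing these members has 43 eligible genes, 9.3% of them members. Of its 47 tested genes, 16 were called lower and 12 higher in parental cells, and 15 lower and 9 higher in resistant cells.

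The remaining 87 members, in neither the role groups nor the interferon-induced list, had smaller folds of 1.3 to 2.66. Besides those described, they include trafficking and Golgi genes (TGOLN2, MLPH, SPIRE2, VAC14 and CORO7) and aldehyde and carbonyl enzymes (ALDH3B1, AKR1A1 and AKR7A2). Glycoprotein quality control is represented by the amidase NGLY1 and the glucosyltransferase UGGT2. Others are the collagen and HIF-related hydroxylases P3H1 and P4HTM, the complement-related C1RL, the microtubule end binder MAPRE3 and the dynactin subunit ACTR1B. The kinases MYLK4, CDKL1 and STK32C and the ankyrin ANK2 are also among them. ALDH3B1 was at 49.8 and 46.0 CPM without and 20.9 and 19.1 CPM with indisulam in the parental libraries, and 53.8 and 55.2 against 31.5 and 31.1 CPM in the resistant ones. C1RL was at 6.22 and 6.55 CPM without and 2.37 and 2.32 CPM with indisulam in the parental libraries, and 12.1 and 11.6 against 6.96 and 6.44 CPM in the resistant ones. C1RL-AS1, on the opposite strand, held 70.0% of the reads of their pair. With the drug, its fitted log2 fold changes were -0.72 in parental and -0.68 in resistant cells.

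The most abundant members per kilobase of exon were enzymes, a Golgi protein and E2F1. TYMS was at 79.3 CPM per kb in parental and 81.5 in resistant untreated cells, and GOT2 at 67.2 CPM per kb in parental and 76.2 in resistant untreated cells. NAPRT, which starts NAD synthesis from nicotinic acid, was at 49.0 CPM per kb in parental and 65.5 in resistant untreated cells. TGOLN2, a protein of the trans-Golgi network, was at 41.8 CPM per kb in parental and 48.5 in resistant untreated cells, and E2F1 at 34.3 CPM per kb in parental and 43.1 in resistant untreated cells. Members as a whole were less abundant than other eligible genes: their median untreated level was 3.27 CPM per kb (quartiles 1.19 and 9.54), against 6.9 CPM per kb (2.64 and 16.8). In CPM without the length the medians were 17.8 and 40.1.

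Other features of the genes that the rule did not use were compared as medians without a test. Members spanned 46357 bases, with a median of 12 exons in the canonical transcript, and other eligible genes 33898 bases and 9 exons. The exon length was close, at 5678 and 5625 bases, and the number of annotated transcripts was 10 and 9. Exons overlapped another gene in 60.1% of members and 53.6% of other eligible genes, and a gene on the opposite strand in 51.3% and 44.4%. Between 2 and 19 members lay on each autosome. The share of eligible genes that were members ranged from 0.849% on chromosome 5 to 3.56% on chromosome 16, which held 18.

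There were 12 pairs of neighbouring members no more than 100 kb apart, 2 of them with overlapping spans. ADAT2 and PEX3 start from opposite strands 109 bases apart on chromosome 6. ACTR3C and LRRC61 overlap by 463 bases, and DMAC2L and CDKL1 by 9294 bases. MYB and AHI1 lie 64233 bases apart. SPATA20 and ABCC3 (78924 bases), NAGLU and COASY (17017 bases), and the interferon-induced pairs already named are further examples.

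**Figure D4:**
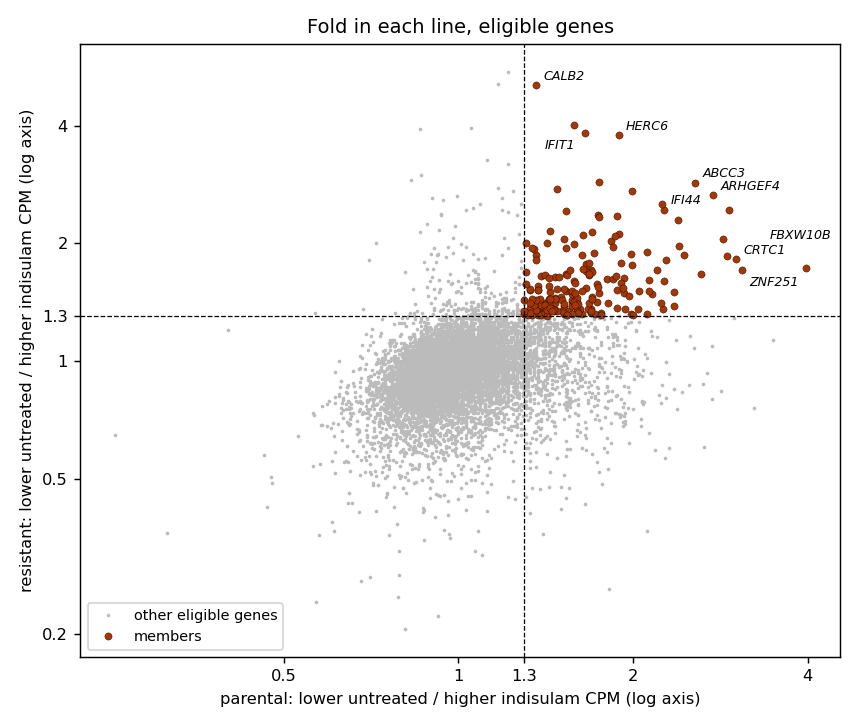
For the 10163 eligible genes, the lower untreated CPM over the higher indisulam CPM in parental (x) and resistant cells (y), both on log axes, with members in red and the limit of 1.3 as dashed lines. CALB2, IFIT1 and HERC6 lie high above the limit in resistant cells, and FBXW10B, ZNF251 and CRTC1 far to the right in parental cells.

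Members were not lowered to the same extent in both lines. Here too the values come from the contrasts that chose the genes, so the difference between lines was not tested. CALB2 (ENSG00000172137, chr16:71358713-71390436, plus strand), which encodes the calcium-binding protein calretinin, had folds of 1.36 in parental and 5.08 in resistant cells. It was at 14.1 and 13.7 CPM in the parental libraries without the drug, 10.096 and 9.99 with it, 19.1 and 18.0 in the resistant libraries off the drug and 3.54 and 2.99 on it. IFIT1 and HERC6 were also among the 4 members with the largest excess of the fitted fall in resistant cells. In the reverse sense, FBXW10B had folds of 3.97 in parental and 1.73 in resistant cells, from levels of 1.04 and 1.04 CPM without and 0.143 and 0.261 CPM with indisulam in the parental libraries, and 2.08 and 2.08 against 1.2 and 0.91 CPM in the resistant ones. ZNF251, a zinc finger gene, had folds of 3.08 in parental and 1.71 in resistant cells, followed by CRTC1 (3.01 in parental and 1.82 in resistant cells) and ZCCHC24 (2.9 in parental and 1.86 in resistant cells). FBXW10B rested on at most 2.08 CPM and has close copies on chromosome 17, whereas CALB2 and ZNF251 were above 10 CPM in all untreated libraries.

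To ask whether the members also differed between the lines, resistant cells were compared with parental cells, first without the drug. The rule set no order between the lines, although these libraries are the same ones it read. Parental untreated cells had no drug and resistant untreated cells were a week off it, so line and earlier exposure cannot be told apart. Of the 193 members, 109 (56.5%) were called higher and 31 (16.1%) lower in resistant untreated cells by the quasi-likelihood test of edgeR. Over all 16661 tested genes 30.3% were called higher and 29.9% lower, and over the 9970 other eligible genes 36.2% and 33.8%. The median log2 fold change of the members was 0.22 (quartiles -0.01 and 0.57), beside -0.02 over all tested genes. All 13 interferon-induced members were called higher, with a median of 2.65. This was not particular to the members, since 71 of the 72 tested genes of the whole interferon-induced list were called higher and 0 lower. Of the 180 other members, 96 (53.3%) were called higher and 31 (17.2%) lower, with a median of 0.20.

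The rises with the largest size off the drug were all interferon-induced. IFIT1 was higher by 3.41 (SE 0.044, edgeR adjusted p 5.3e-26) on the log2 scale, with 7.65 ± 0.437 CPM in parental and 79.9 ± 1.67 in resistant cells (SD, n = 2). DDX60L followed at 3.10, OASL at 3.07, HERC6 at 2.93 and HERC5 at 2.72. Outside that list, MILR1, a myeloid-type immunoglobulin receptor, was higher by 1.67 (SE 0.1, edgeR adjusted p 7.5e-13), LY75, an endocytic lectin, by 1.54, IMPDH1, of guanine nucleotide synthesis, by 1.53, TDRD7 by 1.5 and FLOT2, a membrane scaffold, by 1.36. These 5 were picked after their values were seen.

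The members with the largest falls in resistant untreated cells were of mixed role. KCNAB2 (ENSG00000069424, chr1:5990927-6101193, plus strand), a cytoplasmic subunit of potassium channels, stood at -1.24 (SE 0.064, edgeR adjusted p 1e-11) on the log2 scale, with 24.5 ± 0.0502 CPM in parental and 10.2 ± 0.0839 in resistant cells (SD, n = 2). NPHP4 on the opposite strand held 46.3% of the reads of its pair. SLC35G1 was at -0.93, MAPRE3, a microtubule end binder, at -0.87, CCDC92 at -0.86 and C5 at -0.78. No library of one line overlapped the other line in any of these genes. As given above, opposite-strand genes held 97.5% of the reads of the pair with CCDC92 and 94.2% of that with C5.

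On the drug, 116 members (60.1%) were called higher and 48 (24.9%) lower in resistant than in parental cells. Parental cells had 18 h of the drug and resistant cells were kept on it throughout, so line and exposure length cannot be told apart. The background was 34.6% higher and 34.9% lower over all tested genes, and 31.8% and 48.3% over the other eligible genes. The median log2 fold change was 0.25 over the members and 0.00 over all tested genes. All 13 interferon-induced members were again called higher, with a median of 1.93 and a range of 0.99 to 3.04. Of the 72 tested genes of the whole list, 65 were called higher and 1 lower. Of the 180 others, 103 (57.2%) were higher and 48 (26.7%) lower.

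OASL had the largest rise on the drug, 3.04 (SE 0.065, edgeR adjusted p 2.4e-16) on the log2 scale, with 5.39 ± 0.717 CPM in parental and 47.1 ± 1.66 in resistant cells (SD, n = 2). It was followed by HERC5 at 2.97, DDX60L at 2.62, IFI44 at 2.45 and FBXW10B at 2.26. The lowest were KCNAB2 at -2.15 (SE 0.082, edgeR adjusted p 8.8e-14), CALB2 at -1.73, C5 at -1.24, CCDC92 at -1.07 and MAPRE3 at -1.01. KCNAB2 went from 15.2 ± 1.04 CPM in parental to 3.7 ± 0.685 CPM in resistant treated cells (SD, n = 2). The overlaps of KCNAB2, C5 and CCDC92 with opposite-strand genes apply here too.

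Taking both comparisons, 100 members (51.8%) were called higher in resistant cells off and on the drug and 28 (14.5%) were called lower in both. Over all tested genes these shares were 20.4% and 19.4%, and over the other eligible genes 22.1% and 26.5%. A further 21 were called in neither, 32 only on the drug (14 higher and 18 lower) and 8 only off it (7 higher and 1 lower). The other 4 changed direction, and were named after this was seen: CALB2 and VAC14 were called higher off and lower on the drug, and R3HDM2 and DMAC2L the reverse. The role groups are small and were drawn up after the values were seen, so their counts are given beside the shares over all tested genes already stated (30.3% higher and 29.9% lower off the drug, 34.6% and 34.9% on it). The lysosomal group had 5 of 6 members called higher and 1 lower in both comparisons. On the whole autophagy and lysosome list, 20 of 77 tested genes were called higher and 30 lower off the drug. On it, 22 were called higher and 39 lower. In the cilium and centriole group 9 of 14 were called higher and 1 lower off the drug, and 9 higher and 4 lower on it. The whole centrosome and cilium list had 28 of 95 tested genes called higher and 46 lower off the drug. With the drug, 25 were called higher and 50 lower. Of 13 nucleotide, folate and sugar enzymes, 9 were higher and 1 lower off the drug, and 9 higher and 2 lower on it. The mitochondrial group had 8 of 19 called higher and 2 lower off the drug, and 12 higher and 5 lower on it. Transcription factors and cofactors had 4 of 10 higher and 2 lower off the drug, and 6 higher and 3 lower on it. Membrane transporters were split evenly, with 3 of 7 higher and 3 lower in each comparison. Receptors and surface signalling genes had 4 of 8 higher and 2 lower off the drug, and 2 and 2 on it, and RNA processing and translation genes 3 of 7 higher and 1 lower off it, and 3 and 2 on it. The 5 membrane lipid genes had 3 higher in each comparison and 1 lower on the drug. Of the 4 peroxisomal genes, 2 were lower off the drug, and 1 was higher and 2 lower on it.

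**Figure D5:**
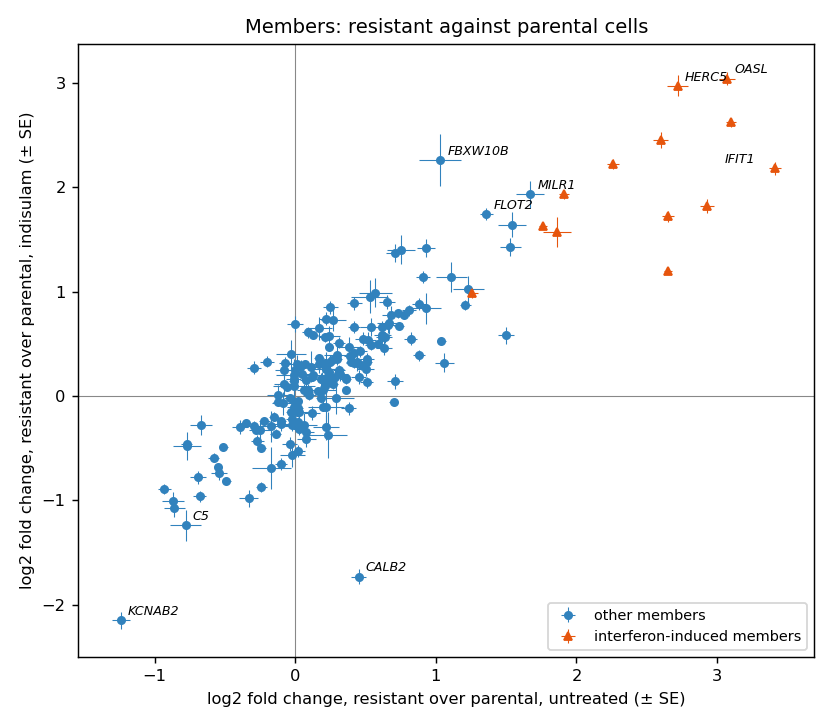
Log2 fold change of resistant over parental cells without (x) and with indisulam (y) for the 193 members, with bars of ± SE from the edgeR fit, and the 13 interferon-induced members as orange triangles. All triangles lie at the upper right, from 1.26 to 3.41 on x and 0.99 to 3.04 on y, while KCNAB2 is at the lower left and CALB2 below the line of 0 on y.

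Replication genes among the members showed smaller differences between the lines. Of the 67 tested genes on the whole replication list, 42 were called higher and 15 lower in resistant cells off the drug. On the drug 17 were called higher and 34 lower, so the members named next do not stand for the list there. POLE2 was higher in resistant cells by 0.77 off and 0.78 on the drug, CDC45 by 0.44 and 0.33, and E2F1 by 0.36 and 0.17, on the log2 scale. UNG, which removes uracil from DNA, was higher by 1.04 and 0.53. For CAD, the enzyme that starts pyrimidine synthesis, the values were -0.00 (SE 0.031, edgeR adjusted p 0.93) off and -0.06 (SE 0.032, edgeR adjusted p 0.086) on the drug, neither past the threshold. The gene with the largest smaller fold, ARHGEF4, also missed it, at -0.09 (SE 0.075, edgeR adjusted p 0.31) off and -0.07 (SE 0.11, edgeR adjusted p 0.6) on the drug.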

How the data were processed

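RNA was sequenced in 8 libraries of Panc10.05 cells, 2 in each of 4 groups. The authors deposited unnormalized counts of reads, a table for every library. Their methods describe strand-specific polyA libraries read from both ends, trimming by SeqPurge, and alignment by HISAT2 against GRCh38. The submitters' processing notes name HISAT2 2.2.1, Picard and HTSeq. The strand setting and annotation release of the counting were not given in the sources used here. After the gene rows, 9 lines for unassigned reads were left out. Of the gene-assigned, no-hit and ambiguous reads together, 4.43% to 5.94% were no hit and 5.61% to 7.33% ambiguous. Ambiguous here sums the lines for ambiguous reads and ambiguous pairs, and the other lines are not in these shares. GENCODE release 44 matched 60419 of the 60675 identifiers.

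CPM were computed from the gene totals for the rule. Members and lists were chosen with earlier results of these data known. edgeR 4.0.16 (R 4.3.3) was fitted to all 8 libraries with filterByExpr, TMM scaling and a robust quasi-likelihood test on 4 residual degrees of freedom. P-values were adjusted by Benjamini-Hochberg over 16661 genes and called under 0.05. The code was tested on simulated counts. An exact permutation test of 2 libraries against 2 cannot go below p = 0.333 and was not used.

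Genes were named by rule: the 24 largest smaller folds, the 4 most unequal between lines in each sense, the 5 largest differences in each direction of each line comparison, 3 on each side of the limit, up to 3 per list or family, the 5 most abundant per kb, and RBM39. Genes outside it are said to have been picked after their values were seen. Those listed for a role group or as further members were picked so too. Promoter windows were from RefSeq (GRCh38.p14). Alternatives were DESeq2 1.42.0, other scalings, filters, thresholds and folds, a replicate block, and each library left out in turn. Leaving out interferon-induced or overlapping members was added after the data were seen. Some members that these rules name are not reported here.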

Additional observations from a re-analysis of the deposited data

Results flagged for a closer look

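R3HDM2, DMAC2L and CALB2 were higher in one line without the drug and lower in that line with it, with no overlap of the libraries in either comparison. R3HDM2 was at -0.29 (resistant minus parental, log2) untreated and 0.27 on indisulam, and DMAC2L, a mitochondrial protein, at -0.20 and 0.33. The member CDKL1 overlaps DMAC2L on the opposite strand and held 35.1% of the reads of their pair. With the strand setting of the counting not known, reads of this pair cannot be told apart. CALB2 was at 0.45 untreated and -1.73 on indisulam. The difference between the comparisons is built from the contrasts that chose the members and was not tested.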

How the results depend on the processing

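With a fold of 1.2 the rule gave 392 members and with 1.5 it gave 72. Fitted falls of at least 1.3-fold called lower in both lines gave 287, of which 185 were among the 193. TMM-scaled CPM gave 208 (173 shared) and DESeq2 size factors 210 (170 shared). Leaving out 1 library gave 203 to 245 members. The counts called higher in resistant cells were 109 untreated and 116 on indisulam, and those called lower 31 and 48. Tested against 0.5 log2 units with glmTreat they were 46, 46, 11 and 15. With the 116 members whose exons overlap another gene left out, they were 48, 48, 13 and 20 of the remaining 77 members (62.3%, 62.3%, 16.9% and 26%). The matching shares over all genes under glmTreat, and over all genes without overlap, are not given here. The counts of these runs are therefore not read as high or low. Leaving out 1 library, the counts of the main test over all members ran from 103 to 112, 106 to 120, 29 to 32 and 43 to 48. With the replicate number as a block they were 107, 116, 31 and 48, and 287 list genes in place of 296 were called lower in both lines. Same-numbered libraries did not deviate together (correlations of -0.058 to 0.0272 over 6 pairs of groups), so the number was not taken as a pairing. The DESeq2 Wald test gave 105, 105, 28 and 44. Among the 13 members with the largest line differences, no alternative run reversed a value, and CALB2 untreated (0.45) missed the threshold under glmTreat. Other named genes were not recomputed. With 2 libraries a group, their number limits the precision.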
